A study of Mus musculus with 4 samples.

Results

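Oligodendrocyte differentiation was followed through 10 genes of the mouse hippocampus. They are the lineage transcription factors Olig1, Olig2, Sox10, Myrf, Nkx2-2, Sox6 and Tcf7l2 and the stage genes Gpr17, Bcas1 and Enpp6. The genes were taken by symbol, and all 10 were found among the 55403 genes counted. The study sequenced RNA of single nuclei from frozen hippocampus of mice that the series title calls aged, with the tissue pooled within a group, and asked how the sorting receptor SORLA bears on a tau mouse model. There were 4 libraries, 1 of WT mice, 2 of PS19 mice and 1 of TG_PS19 mice. PS19 mice carry a 1N4R tau transgene with the P301S change under the Prnp promoter (line PS19Vle). TG_PS19 mice carry this transgene and also the SORLA-Rosa26 transgene, in which a CMV/β-actin promoter element drives SORLA, and the protocol speaks of littermates. Neither transgene is limited to oligodendrocytes by its label, no group carries SORLA without the tau transgene, and neither the number of animals in a pool nor their exact age or sex was given.

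Oligodendrocytes arise from precursors that carry the receptor Pdgfra and the proteoglycan Vcan. Olig1, Olig2, Sox10 and Nkx2-2 are transcription factors of the whole lineage or its early part, and Sox6 holds precursors in the immature state. As a precursor leaves that state it passes through a short committed stage known for the orphan receptor Gpr17, the early myelinating cell protein Bcas1, the choline phosphodiesterase Enpp6 and the Wnt effector Tcf7l2. Myrf, a membrane-bound factor that frees itself by cleavage, then switches on myelin genes such as Mog and Mag.

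The bases upstream of 2 start sites are shown, that of Enpp6, the 1 member called between genotypes within a stage, and that of Sox6, the member with the widest difference between stages. Both come from RefSeq on build GRCm38.p6, in which 5 of the 10 genes had an entry. Enpp6 begins on the plus strand of chromosome 8 and its window is chr8:46986637-46986886. Sox6 begins on the minus strand of chromosome 7 and has several RefSeq start sites, of which the farthest upstream is used. Its RefSeq window, chr7:116038745-116038994, reaches past the annotated start of the gene at 116038796. It was therefore cut to chr7:116038797-116038994. The other Sox6 windows, not printed, held 0 to 4 SOX matches. Both are printed 5′ to 3′ on the strand of the gene and end at the base before the annotated start of the gene. Capitals mark 2 kinds of motif searched on both strands, which do not overlap here. A SOX motif was taken as ACAAAG or in a variant form as ACAATG. An E-box was taken as CAGCTG in the palindromic form, as CATCTG in the form with unlike centre bases and as CAGATG for the opposite strand of that form.
Enpp6: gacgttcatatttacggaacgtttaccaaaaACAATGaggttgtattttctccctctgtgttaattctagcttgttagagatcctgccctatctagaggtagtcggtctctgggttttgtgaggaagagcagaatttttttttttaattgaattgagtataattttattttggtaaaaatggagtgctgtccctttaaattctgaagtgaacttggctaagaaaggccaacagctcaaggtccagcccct
Sox6: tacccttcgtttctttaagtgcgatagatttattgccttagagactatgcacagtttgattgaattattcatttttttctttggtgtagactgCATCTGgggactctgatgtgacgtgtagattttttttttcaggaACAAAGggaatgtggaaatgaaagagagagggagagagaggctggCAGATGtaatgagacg
The Enpp6 window held 1 SOX match and 0 E-box matches. A SOX match was present in 25.2% of the 32851 windows of the same 250 bases in the table and an E-box match in 25.5%. The Sox6 window of 198 bases held 1 SOX match and 2 E-box matches, which 21.0% and 20.8% of windows of that length held at least once. Such matches are common and describe only these letters.

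Of the barcodes in the 4 libraries, 29616 nuclei were kept, between 4467 in PS19 replicate 1 and 11458 in WT, and the libraries held 20064025 to 48670533 UMIs (unique molecular identifiers, each counting 1 captured RNA molecule). Pairs of libraries shared 5 to 32 barcodes. Clusters that resembled oligodendrocyte precursors, committed precursors or oligodendrocytes by their markers held 11501 lineage nuclei. A lineage nucleus was called a precursor if its Pdgfra and Vcan UMIs outnumbered its Mog and Mag UMIs, and a mature oligodendrocyte in the reverse case. This gave 349 precursors in WT, 223 and 235 in PS19 replicates 1 and 2, and 552 in TG_PS19, 1359 in all. Mature oligodendrocytes numbered 3293, 1837, 1867 and 2978 in the same order, 9975 in all, and 167 lineage nuclei were neither. The precursor identity list, fixed with the other lists, was lower in mature oligodendrocytes in 16 of its 16 tested genes and the myelin list higher in 14 of 14. Nuclei with Xist UMIs and no Y-linked UMI made up 40.3% of the lineage in TG_PS19 and 0.0481% to 0.136% in the other 3 libraries, so that only TG_PS19 held many nuclei of both sexes. Mouse Sorl1 stood at 81.0 CPM in TG_PS19 (the UMIs of a gene per 1000000 UMIs), 89.7 and 85.4 in PS19 and 97.9 in WT over all kept nuclei. Whether transcripts of the SORLA transgene are counted under that gene by 3′ tags was not given in the sources used here, so this does not check the label.

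Levels below are CPM, computed from UMIs summed over the nuclei of a library and stage. Nuclear UMIs vary with gene length and with introns, so levels are compared within a gene and never between genes. Precursors were the deeper nuclei, with a median of 3390 to 5295 UMIs against 1963 to 3056 in mature oligodendrocytes. In summed nuclei, a change in the number of cells of a subtype and a change in RNA per cell cannot be told apart.

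Sox6, Gpr17, Myrf, Olig2, Tcf7l2 and Olig1 differed more between the 2 stages than between genotypes within a stage. Enpp6, Bcas1, Sox10 and Nkx2-2 each had a genotype difference at least as wide. Enpp6 had a log2 difference of 3.37 between PS19 and WT precursors and 2.90 between stages. EdgeR's quasi-likelihood test with Benjamini-Hochberg adjustment and the library as a block set mature oligodendrocytes against precursors. It called 8 of the 10 genes at an adjusted p under 0.05, 6 lower and 2 higher in mature oligodendrocytes, where 61.2% of the 14580 genes tested were called. The median log2 difference was -0.70 over the 10 genes and 0.02 over all genes. With most genes differing between the stages, the count of members adds little, and their sizes and directions are given in turn.

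The transcription factors Sox6, Olig2, Olig1 and Nkx2-2 were lower in mature oligodendrocytes. Sox6 stood at 1766 CPM in WT precursors, 1680 and 1918 in PS19 replicates 1 and 2, and 1882 in TG_PS19, and at 12.7, 31.4, 46.8 and 8.81 CPM in mature oligodendrocytes. All precursor values lay far above all mature values, a log2 difference of -6.31 (SE 0.31, adjusted p = 4.23e-10 by edgeR). Olig2 fell from 176, 212, 190 and 132 CPM to 30.7, 48.99, 41.8 and 27.5 CPM (log2 difference -2.23). Olig1, its neighbour on chromosome 16 and a partner in the lineage, fell from 241, 272, 180 and 156 CPM to 127, 121, 100.2 and 92.0 CPM (-0.88). Nkx2-2, a homeodomain factor, differed least of the genes called, at 51.3, 57.6, 79.5 and 56.7 CPM in precursors and 51.4, 46.1, 37.8 and 33.1 CPM in mature oligodendrocytes (-0.53, adjusted p = 0.00807). Its 2 stages overlapped, and in WT they hardly differed.

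Sox10 and Myrf, which drive myelin genes together, behaved differently from each other. Sox10 stayed at 379, 446, 411 and 335 CPM in precursors and 418, 385, 343 and 338 CPM in mature oligodendrocytes. The stages overlapped, and the log2 difference of -0.04 (SE 0.08) did not pass the test (adjusted p = 0.73). Its sign turned under 6 of 18 other settings. Myrf rose from 20.2, 11.5, 20.8 and 11.5 CPM to 173, 229, 218 and 191 CPM, a log2 difference of 3.71 (SE 0.15, adjusted p = 5.08e-11), with no overlap.

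The stage genes went both ways. Gpr17 stood at 127, 169, 140 and 147 CPM in precursors and fell to 3.66, 8.47, 4.24 and 8.05 CPM (log2 difference -4.55, SE 0.15, adjusted p = 4.92e-12). Tcf7l2 fell from 157, 234, 209 and 176 CPM to 55.6, 65.3, 109 and 84.6 CPM (-1.27). Enpp6 rose from 4.66, 51.9, 45.3 and 13.3 CPM to 176, 189, 192 and 189 CPM (2.90, SE 0.29, adjusted p = 7.36e-07). Enpp6 thus had even levels in mature oligodendrocytes and uneven ones in precursors, where WT was lowest and both PS19 libraries highest. Bcas1 was at 470, 802, 784 and 506 CPM in precursors and at 687, 706, 682 and 604 CPM in mature oligodendrocytes, and its log2 difference of 0.14 did not pass the test (adjusted p = 0.271). Within the libraries its sign went both ways, since WT and TG_PS19 had more Bcas1 in mature oligodendrocytes and both PS19 libraries had more in precursors.

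**Figure D1:**
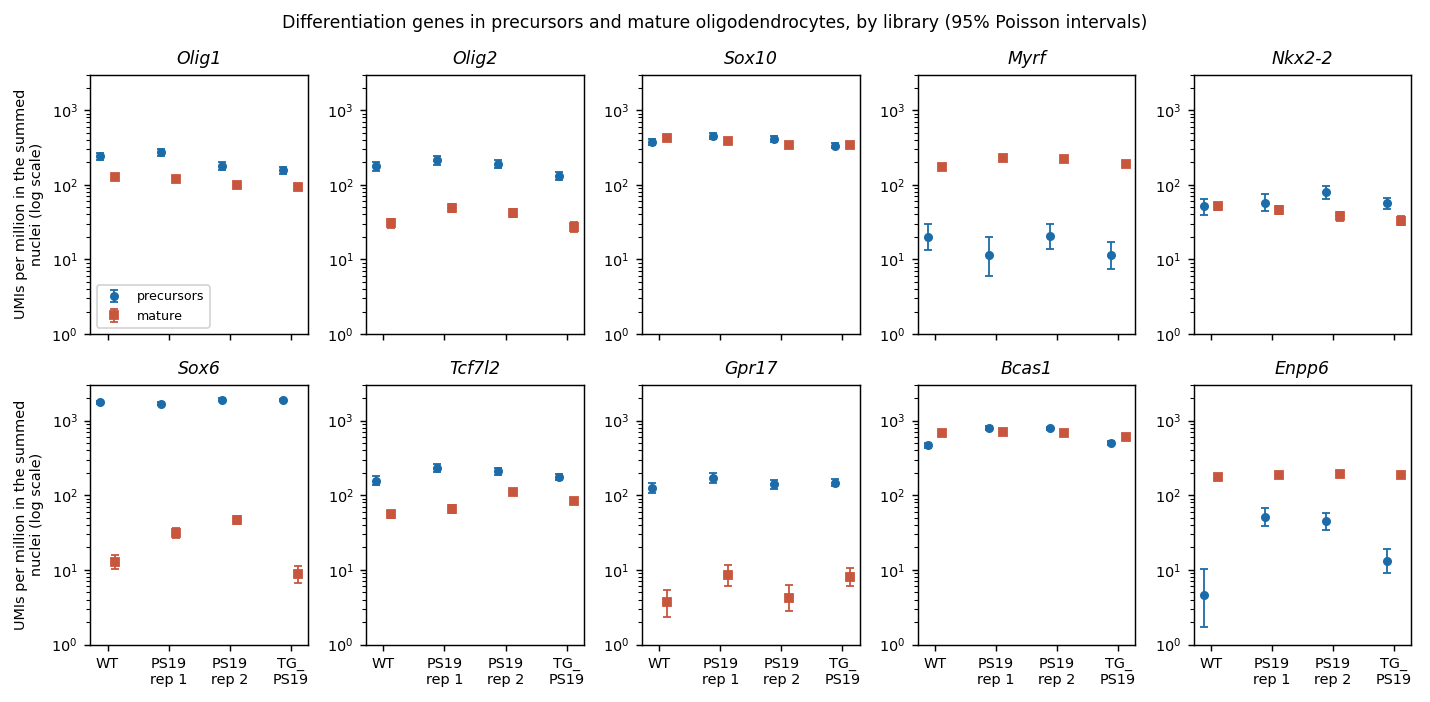
Level of each of the 10 genes in precursors and in mature oligodendrocytes of the 4 libraries, in CPM on a log axis, with exact 95% Poisson intervals for counting error. Sox6 and Gpr17 are lower in mature oligodendrocytes of every library and Myrf higher, and Enpp6 in precursors runs from 4.66 in WT to 51.9 in PS19 replicate 1.

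Other genes of the pathway, in lists fixed with the members, are given by their counts. Of 15 tested genes of the committed and newly formed list, 13 were called, 11 lower and 2 higher in mature oligodendrocytes. Neu4, a sialidase, had a log2 difference of -6.03, and the adhesion gene Nfasc one of 1.95. Of 21 partner factors, 16 were called, 9 higher and 7 lower. Nkx6-2 (6.75) and St18 (5.97) were the highest. Of 18 genes listed as brakes on differentiation, 14 fell and 2 rose. Sox5 (-6.53), a SOXD factor like Sox6, was among those lower, and Daam2 (6.26), a Wnt pathway gene, rose. The myelin list had a median log2 difference of 4.58 and was led by Mobp at 7.24.

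A small cluster carried the stage genes at their highest levels. It held 65 nuclei in all, led by 9630013A20Rik, Cnksr3, Gm13052 and Gm13187, and it had all 8 of its 8 committed precursor markers raised. These are 2 nuclei of WT, 19 and 31 of PS19 replicates 1 and 2, and 13 of TG_PS19. The 10 genes were left out of the genes used for clustering, but genes that vary with them were not, so their levels in this cluster are a description. Its nuclei were deep, with a median of 4809.5 to 6841 UMIs by library, and the precursor gate took 1, 8, 12 and 4 of them and the mature gate 1, 11, 19 and 8, with 1 nucleus of TG_PS19 in neither.

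Bcas1 reached 5406 CPM in the cluster in WT, 6523 and 4651 in PS19 and 2102 in TG_PS19. Enpp6 stood there at 1559, 1357, 1149 and 866 CPM and Tcf7l2 at 1351, 1633, 2067 and 2368 CPM. Each of these values was above the level of the same gene in precursors and in mature oligodendrocytes of the same library. Sox6 was at 1975, 2393 and 2123 CPM in the first 3 libraries, near its level in precursors, and at 728 CPM in TG_PS19. Gpr17 was at 208, 596, 322 and 173 CPM, and Myrf, at 208, 164, 187 and 185 CPM, was already near its level in mature oligodendrocytes. Pdgfra gave 1, 0, 0 and 2 UMIs in all. The WT values rest on 2 nuclei, and Olig1 and Olig2 had 0 UMIs in them.

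Within the cluster the nuclei split by the gate were not alike. The part with more Pdgfra and Vcan UMIs had Gpr17 at 759, 799 and 518 CPM in PS19 replicates 1 and 2 and TG_PS19, and the part with more Mog and Mag UMIs at 460, 90.4 and 46.7 CPM. Tcf7l2 ran the other way, at 1195, 733 and 1036 CPM in the first part and 1999, 2713 and 2800 CPM in the second. Sox6 was at 2978, 3518 and 2935 CPM in the first part and at 1904, 1447 and 93.3 CPM in the second. In the gate's order, then, Gpr17 and Sox6 were higher on the precursor side and Tcf7l2 on the myelinating side in these 3 libraries. WT had 1 nucleus on each side.

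The share of this cluster differed between libraries. It was 0.0175% of kept nuclei in WT, with an exact 95% interval of 0.00211% to 0.0630%. PS19 replicate 1 had 0.425% (0.256% to 0.663%) and replicate 2 had 0.656% (0.446% to 0.929%). TG_PS19 had 0.145% (0.0773% to 0.248%). The intervals cover counting error only. WT and TG_PS19 lay below both PS19 libraries, with no overlap of intervals between either of them and PS19. As a share of lineage nuclei it was 0.0544% in WT (0.00658% to 0.196%), 0.915% (0.552% to 1.42%) and 1.46% (0.992% to 2.06%) in PS19 replicates 1 and 2, and 0.359% (0.191% to 0.614%) in TG_PS19. With that denominator the intervals of TG_PS19 and PS19 replicate 1 overlapped. With 1 library against 2 an exact permutation test cannot give a p below 0.333, so no test was made. The doublet filter bore on this share, since it took 27 nuclei of the cluster in WT, 7 and 4 in PS19 and 37 in TG_PS19. With doublets kept, the shares were 0.227% (0.152% to 0.326%), 0.647% (0.437% to 0.922%), 0.731% (0.513% to 1.01%) and 0.504% (0.373% to 0.666%). The TG_PS19 interval then overlapped those of both PS19 libraries, and the WT interval still did not. Over whole libraries the filter took most from WT, 1303 of 12762 barcodes, and least from PS19 replicate 1, 172 of 4643. Nuclei scored as doublets in that cluster had Enpp6 at 191 CPM in WT, 0 UMIs in both PS19 libraries and 417 CPM in TG_PS19, and nuclei not so scored at 1559, 1078, 1094 and 896 CPM.

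A count of nuclei by genes in place of the cluster was made after the clusters had been seen. Its genes were leading genes of the cluster or markers that named it, so it is not a separate check. Nuclei with a UMI of at least 4 of Bmp4, 9630013A20Rik, Neu4, Tmem163 and Cnksr3 made up 0.0627%, 0.474%, 0.610% and 0.237% of nuclei with doublets kept, and 0.0436%, 0.493%, 0.613% and 0.0893% without. After every nucleus was thinned to 1000 UMIs, with doublets kept and a minimum of 3 of the 5 genes, the shares were 0.0564%, 0.262%, 0.347% and 0.252%. WT stayed lowest and PS19 replicate 2 highest in each of these counts. After thinning TG_PS19 came within the intervals of both PS19 libraries (0.136% to 0.458% and 0.202% to 0.555%). In TG_PS19 nuclei with Y-linked UMIs and no Xist UMI, 2 of 2179 fell in the cluster (0.0918%).

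**Figure D2:**
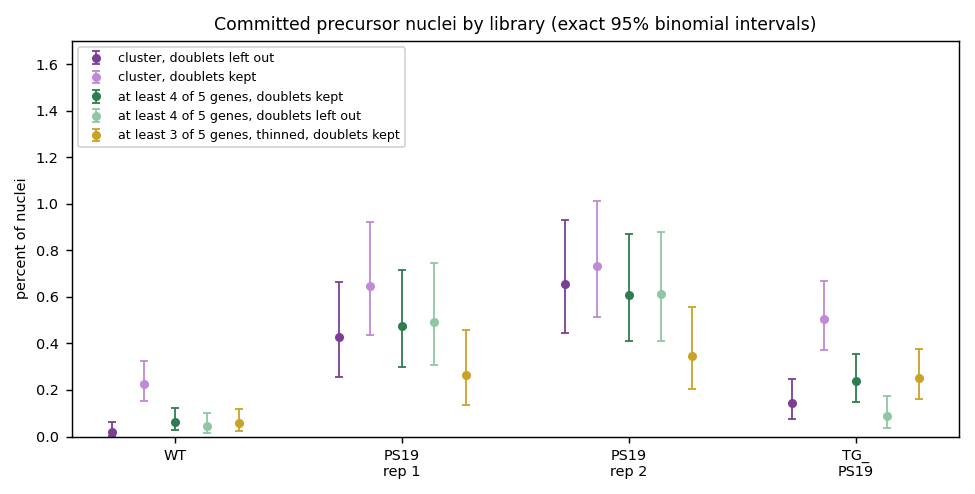
Share of nuclei in the committed-precursor-like cluster by library, in percent, under different ways of counting, with exact 95% binomial intervals. PS19 lies above WT under each, and TG_PS19 moves from 0.145% to 0.504% when doublets are kept.

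PS19 was compared with WT within each stage, and with 1 WT library the tau transgene and the library cannot be told apart. In precursors 1 of the 10 genes was called, where 0.0715% of the 12586 genes tested were called, all 9 of them higher in PS19. Enpp6 was higher in PS19 by a log2 difference of 3.37 (SE 0.39, adjusted p = 0.0395, edgeR), from 6 UMIs in WT and 54 and 61 in PS19. Of these UMIs, 3 of 6, 51 of 54 and 61 of 61 lay in the committed-precursor-like cluster, which gave 1, 8 and 12 of the precursors. Outside the cluster 3, 3 and 0 UMIs remained, fewer than the filter on low counts required, and the difference was then not testable. Its call was also lost with doublets kept, where the log2 difference was 0.73 (adjusted p = 0.453), after thinning, with DESeq2 and with adjusted residual degrees of freedom, and its adjusted p ran from 8.142e-11 to 0.453 over the other settings. Bcas1, at 470 CPM in WT against 802 and 784 in PS19, had a log2 difference of 0.78 that did not pass (adjusted p = 0.605), and 21 of 605, 324 of 835 and 424 of 1056 of its UMIs lay in that cluster.

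Few genes of the lists were called with Enpp6. In precursors Frmd4a, of the committed list, was higher in PS19 by 2.25 and the partner factor St18 by 2.24, and 1 of 16 tested committed genes and 1 of 20 partner factors were called. None of the 18 precursor identity genes, 18 brakes or 14 myelin genes was called by edgeR. Without the committed-precursor-like cluster, 0 of 15 committed genes, 0 of 20 partner factors and 0 of 9 members were called by edgeR, and 2 of 14 myelin genes were. Of all 12465 genes tested in that fit, 0.217% were called.

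TG_PS19 against PS19 compared the tau background with and without the SORLA transgene. TG_PS19 was 1 library and the only one with many nuclei of both sexes. Transgene, sex and library therefore cannot be told apart. In precursors 0 of the 10 genes were called, where 0.0874% of all genes were, by edgeR. DESeq2 called 0 as well. An unadjusted p under 0.05 was seen for 3 members and for 9.0% of all genes. Enpp6 stood at 13.3 CPM in TG_PS19, between WT and PS19, with a log2 difference of -1.76 (adjusted p = 0.093) that was called under 6 of 13 other settings and turned to 0.19 with doublets kept. Of its 30 UMIs in TG_PS19 precursors, 23 lay in the cluster. St18 was lower in TG_PS19 by a log2 difference of -1.78 (adjusted p = 0.0234), which became -0.24 (adjusted p = 0.913) without the cluster. TG_PS19 against WT called 0 members in precursors by edgeR and by DESeq2, where 0.0238% of all genes were called. An unadjusted p under 0.05 was seen for 1 member and for 6.04% of all genes.

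**Figure D3:**
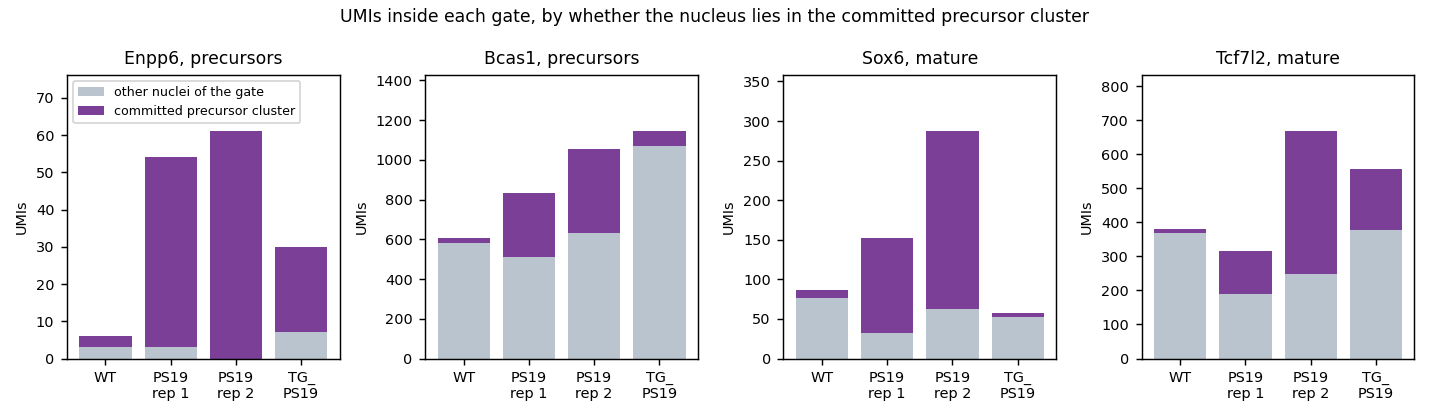
UMIs of Enpp6 and Bcas1 in precursors and of Sox6 and Tcf7l2 in mature oligodendrocytes of each library, as stacked bars divided into those inside and those outside the committed-precursor-like cluster. In precursors of PS19 nearly all Enpp6 UMIs are inside it (51 of 54 and 61 of 61), and in mature oligodendrocytes of PS19 most Sox6 UMIs are (120 of 152 and 224 of 287).

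In mature oligodendrocytes no member was called by edgeR in PS19 against WT, where 0.867% of the 16260 genes tested were called. DESeq2 called 1, a count whose share over all genes by that method is not given here. By edgeR 4 members and 13.9% of all genes had an unadjusted p under 0.05. Sox6 was higher in PS19 by a log2 difference of 1.68 (adjusted p = 0.0671), and TG_PS19 stood below PS19 by a difference of -2.11 (adjusted p = 0.0519). The committed-precursor-like cluster held 11 of its 87 UMIs in WT mature oligodendrocytes, 120 of 152 and 224 of 287 of those in PS19, and 6 of 58 in TG_PS19. Outside it Sox6 stood at 11.1, 6.70, 10.5 and 7.97 CPM, and the differences were -0.29 (adjusted p = 0.667) and -0.09 (adjusted p = 0.916). Over all other settings the adjusted p of Sox6 ran from 3.61e-14 to 0.8266 for PS19 against WT, and its sign turned in 4 of 15. Sox6 is also a gene of astrocytes, and the 8 astrocyte markers, all of them detected, summed to 526 CPM in mature oligodendrocytes of WT, 252 and 213 in PS19 and 389 in TG_PS19. Their part in these values was not tested.

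The differences of Olig2 and Myrf in mature oligodendrocytes hardly moved when the cluster was left out. Olig2 stood at 30.7 CPM in WT, 48.99 and 41.8 in PS19 and 27.5 in TG_PS19, so that both PS19 libraries lay above the other 2. Its log2 difference of 0.60 in PS19 against WT did not pass (adjusted p = 0.161), nor did that of -0.66 in TG_PS19 against PS19 (adjusted p = 0.124). With the cluster left out, an alternative added after the data were seen, both were called, at 0.57 (adjusted p = 0.0108) and -0.65 (adjusted p = 0.00307). The share of all genes called rose with it, from 0.867% to 6.32% in PS19 against WT and from 0.646% to 8.35% in TG_PS19 against PS19. The adjusted p of Olig2 ran from 0.00227 to 1 and from 0.0005802 to 0.7088 over 15 settings. Myrf was at 173 CPM in WT and 229 and 218 in PS19, a log2 difference of 0.41 (adjusted p = 0.175) that became 0.42 (adjusted p = 0.0199) without the cluster, with a range of 0.0001238 to 0.7258. TG_PS19, at 191 CPM, lay between.

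Of the stage genes, Gpr17 and Tcf7l2 in mature oligodendrocytes turned on the same nuclei. In TG_PS19 against PS19, 0 of 10 members were called by edgeR, where 0.646% of all genes were. DESeq2 called 1, again without its share over all genes. By edgeR an unadjusted p under 0.05 was seen for 2 members and for 16.0% of all genes. Gpr17 had a log2 difference of 0.44 (adjusted p = 0.64), and Tcf7l2 one of 0.00 (adjusted p = 0.999). In mature oligodendrocytes outside the committed-precursor-like cluster Gpr17 stood at 3.52, 2.51, 2.01 and 7.67 CPM, and TG_PS19 was called higher by 1.82 (adjusted p = 0.000816). Gpr17 was also in 1.61% of dentate granule neurons of TG_PS19, against 0.828% and 0.371% in PS19. In astrocytes it was in 0.897% against 0.696% and 0.772%. Endothelial nuclei gave 1.35% against 1.52% and 1.27%, and microglia 1.00% against 0.385% and 1.04%, so not all classes were higher in TG_PS19. Whether free RNA had a part was not tested. In mature oligodendrocytes outside the cluster Tcf7l2 stood at 53.9, 39.8, 41.5 and 57.8 CPM and was called higher in TG_PS19 by 0.56 (adjusted p = 0.00465). Of all Tcf7l2 UMIs in mature oligodendrocytes, 12 of 380, 126 of 316, 420 of 668 and 180 of 557 lay in the cluster. The adjusted p ran from 0.0007362 to 0.9724 for Gpr17 and from 0.004344 to 1 for Tcf7l2 over 15 settings. Leaving the cluster out also raised the number of genes called in this comparison from 105 to 1350, or 8.35% of those tested. TG_PS19 against WT called 0 members by edgeR and by DESeq2, where 0.0308% of all genes were called, and 2 members and 10.9% of all genes had an unadjusted p under 0.05.

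Of the listed genes in mature oligodendrocytes, 4 of 16 tested precursor identity genes were called in PS19 against WT. The matrix gene Tnr (2.82) and the SOXC factor Sox4 (2.62) were higher, and Ptprz1 (-1.34) and Cspg5 (-1.15) lower. Without the committed-precursor-like cluster Tnr was at 0.13 (adjusted p = 0.832) and Sox4 had too few UMIs to be tested, while Ptprz1 (-1.56) and Cspg5 (-1.13) were still called. Ptprz1, a receptor phosphatase listed also among the brakes, was higher in TG_PS19 than in PS19 by 1.18. Of the 8 astrocyte markers, 3 were lower in PS19 than in WT in the same nuclei and 2 higher in TG_PS19 than in PS19, and their part was not tested. The kinase Fyn, of the committed list, was lower in TG_PS19 by a log2 difference of -0.93, which became -0.26 (adjusted p = 0.274) without the cluster. No partner factor and no myelin gene was called by edgeR in either comparison, of 22 and 16 tested.

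Whether a genotype difference was the same in the 2 stages was tested by the interaction of stage and group. In PS19 against WT 3 of the 10 genes were called, where 0.274% of all genes were. The difference in mature oligodendrocytes was smaller than in precursors by 3.21 on the log2 scale for Enpp6, an interaction of -3.21 (SE 0.39, adjusted p = 0.0308). It was greater by 1.63 for Sox6 (SE 0.21, adjusted p = 0.0350). Bcas1 had an interaction of -0.71 (SE 0.10, adjusted p = 0.0409). Without the committed-precursor-like cluster these became 0.71 (adjusted p = 0.923), -0.32 (adjusted p = 0.678) and -0.34 (adjusted p = 0.054), and Sox10 was called at -0.43 (adjusted p = 0.0117) where 2.57% of all genes were. In TG_PS19 against PS19 1 member was called, where 0.0412% of all genes were. This was Sox6, at -2.27 (SE 0.22, adjusted p = 0.0429), and without the cluster it was at -0.25 (adjusted p = 0.871), while Gpr17 was called at 1.48 (adjusted p = 0.0193) where 1.33% of all genes were. All 4 interaction calls thus ended when these 65 nuclei were left out.

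Nuclei holding Gpr17 or Bcas1 were taken as intermediates. They made up 70.4% of lineage nuclei in WT (exact 95% interval 68.9% to 71.9%), 73.5% (71.6% to 75.4%) in PS19 replicate 1, 79.9% (78.1% to 81.6%) in replicate 2 and 68.3% (66.8% to 69.8%) in TG_PS19. Nearly all came in through Bcas1, which was in 70.2%, 78.0%, 79.1% and 73.0% of precursors and in 69.4%, 72.0%, 79.4% and 65.3% of mature oligodendrocytes. Bcas1 was in 3.81% to 5.13% of astrocytes, the level that free RNA or a low true level gives in another type. Both PS19 libraries were deeper and gave the higher shares, and after thinning to 1000 UMIs the shares of lineage nuclei were 48.0%, 43.8%, 44.6% and 42.7%, with WT highest. Holding a Bcas1 UMI therefore did not set apart a stage between the 2 gates in these nuclei.

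Gpr17 did divide the stages. It was in 34.4% of precursors in WT (29.4% to 39.6%), 43.5% (36.9% to 50.3%) in PS19 replicate 1, 42.1% (35.7% to 48.7%) in replicate 2 and 41.5% (37.3% to 45.7%) in TG_PS19. These intervals overlap. It was in 0.729%, 1.14%, 1.23% and 1.78% of mature oligodendrocytes. In astrocytes it was in 0.539% to 0.897% of nuclei, in dentate granule neurons in 0.371% to 1.61% and in endothelial nuclei in 0.867% to 1.52%. These types should lack the gene, but depth differed, with a median of 6484 to 10256 UMIs in dentate granule neurons. In CPM mature oligodendrocytes, at 3.66 to 8.47, lay above dentate granule neurons (0.338 to 1.93) and astrocytes (1.60 to 2.75). They overlapped endothelial nuclei (5.42 to 8.23), microglia (up to 5.54), mural-like nuclei (up to 7.84) and Cajal-Retzius neurons (up to 8.41). The committed-precursor-like cluster held 29 of 41 and 14 of 26 Gpr17 UMIs of mature oligodendrocytes in PS19 replicates 1 and 2. It held 1 of 25 in WT and 3 of 53 in TG_PS19. Outside it, by the levels given above, both PS19 libraries lay within the astrocyte range. WT and TG_PS19 stayed above that range. After thinning, with the gate read on the thinned UMIs, 12.6%, 10.7%, 12.6% and 12.1% of precursors held Gpr17, and WT was no longer lowest.

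Precursors with a Gpr17 UMI were set against precursors without one, in each library, with the library as a block. There were 120, 97, 99 and 229 nuclei with Gpr17 and 229, 126, 136 and 323 without. Of the 8 other members tested, 1 was called, where 0.604% of the 8438 genes tested were (51 genes, 45 higher and 6 lower). Bcas1 was at 422 CPM without and 554 CPM with Gpr17 in WT, 465 and 1178 in PS19 replicate 1, 487 and 1181 in PS19 replicate 2, and 442 and 582 in TG_PS19. It was higher with Gpr17 in all 4 libraries, most so in both of PS19, by a log2 difference of 0.86 (SE 0.10, adjusted p = 4.99e-08 by edgeR). Myrf (1.21, adjusted p = 0.122) and Tcf7l2 (0.40, adjusted p = 0.129) did not pass.

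Genes of the committed list rose with Gpr17, 6 of 14 tested and none lower. Bmp4, a signal that committed precursors secrete, had a log2 difference of 2.31, Frmd4a one of 1.78 and Fyn one of 1.00. In WT, Bmp4 was at 12.3 CPM without and 14.9 CPM with Gpr17, Frmd4a at 74.8 and 91.2 and Fyn at 298 and 335. PS19 replicate 1 gave 9.11 and 112, 96.6 and 737, and 279 and 788 CPM in the same order. Replicate 2 gave 16.9 and 90.2, 182 and 595, and 266 and 966 CPM. TG_PS19 gave 4.11 and 19.2, 111 and 341, and 239 and 300 CPM. The called 9630013A20Rik was lower with Gpr17 in WT, at 83.3 and 70.0 CPM. St18 (2.35) and Zeb2 (0.29) rose among 20 partner factors. The myelin protein gene Mbp (1.03) rose too. So did Tnr (0.29, adjusted p = 0.00379), 1 of 18 precursor identity genes, and the growth factor gene Nrg1 (0.27, adjusted p = 0.0278), 1 of 13 brakes. Outside the lists 9530059O14Rik (3.50) rose, as did 9130019P16Rik (1.84), Gm16364 (1.58), the lens filament gene Bfsp2 (1.49), Epb41l2 (1.30) and Dbndd2 (1.29). The difference of 9530059O14Rik was widest in PS19, at 0 and 166 CPM in replicate 1 and 23.4 and 156 in replicate 2. That gene went the other way in WT, at 4.90 and 0 CPM, and was at 0 and 30.7 CPM in TG_PS19. The cell division gene Top2a was lower with Gpr17 (-1.76, adjusted p = 0.0180 by edgeR). Without and with Gpr17 it stood at 28.2 and 2.12 CPM in WT and at 45.5 and 5.20 CPM in PS19 replicate 2. PS19 replicate 1 hardly differed, at 21.9 and 20.3 CPM, and TG_PS19 was low on both sides, at 4.11 and 1.92 CPM.

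Committed nuclei were gathered on the Gpr17 side of this split, with 1, 8, 10 and 4 of them against 0, 0, 2 and 0 without Gpr17. When they were left out, 2 of 8453 genes were called, both among the 51, and 0 members. They were 4930555F03Rik (0.79) and Cfap20 (-0.44), each with an adjusted p of 0.0444. Bcas1 then had a log2 difference of 0.33 (adjusted p = 0.0506). Its call was also lost with DESeq2 (adjusted p = 0.432), with a robust prior (0.5645) and without the library block (0.0892), within a range of 1.142e-21 to 0.5645 over 16 settings.

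**Figure D4:**
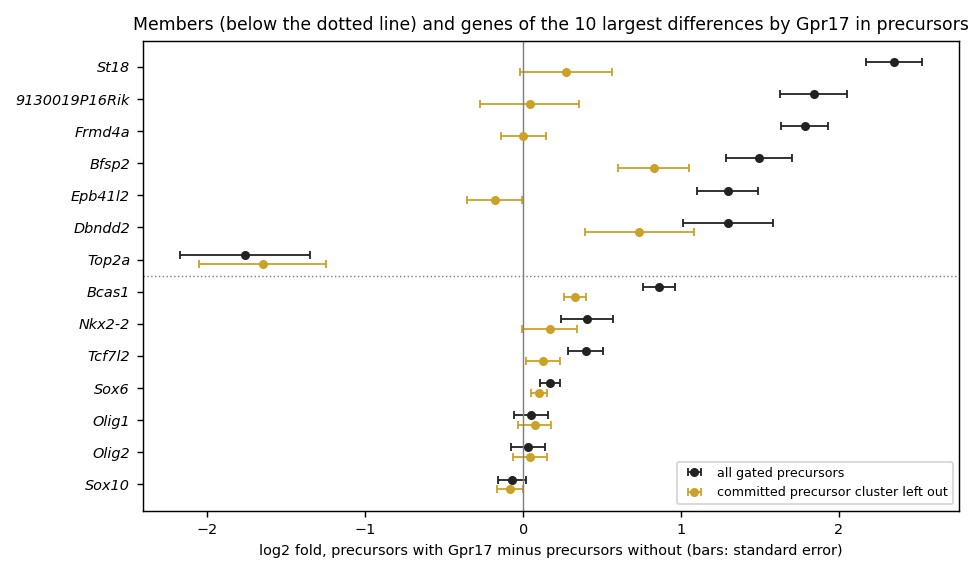
Log2 difference between precursors with and without a Gpr17 UMI, from edgeR with standard errors, for members (below the dotted line) and genes of the 10 largest differences that could be fitted both with and without the committed-precursor-like cluster. Bcas1 moves from 0.86 to 0.33 when that cluster is left out and St18 from 2.35 to 0.27. Top2a moves from -1.76 to -1.65 and is then no longer called (adjusted p = 0.110 by edgeR).

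The split of precursors by Bcas1 gave less. It called 0 of 7 other members by edgeR, where 0.0799% of 8762 genes were called, and DESeq2 called 0. An unadjusted p under 0.05 was seen for 3 members and for 6.71% of all genes. The 7 genes called were all higher with Bcas1. They were Frmd4a (1.59), St18 (1.59), Epb41l2 (1.16), Bcas1os2 (1.15), Tmem108 (0.78), Fyn (0.78) and Tnr (0.29). Bcas1os2 overlaps Bcas1 by name as its opposite-strand transcript, and reads of such a pair may be shared. It was the 1 gene called without the committed-precursor-like cluster, at 0.79.

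Oligodendrocyte-like nuclei, taken here by cluster and not by the gate, fell into 4 clusters. Enpp6 took the same order among them in all 4 libraries. The clusters are named here by leading genes, Anln, 9330111N05Rik, Opalin and Slc13a1. The members were left out of the genes that formed them, but genes that vary with the members were not, so no test is given. Enpp6 was at 349, 347, 334 and 342 CPM in the Anln cluster, 119, 141, 119 and 112 in the 9330111N05Rik cluster, 60.4, 56.0, 54.5 and 82.1 in the Opalin cluster and 19.6, 20.4, 11.9 and 32.6 in the Slc13a1 cluster. No value of 1 cluster reached into the next, so that Enpp6 in oligodendrocyte-like nuclei marked a gradient far wider than any difference between libraries within a cluster.

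Olig2 ran against Enpp6. In the Anln cluster it stood at 21.6, 24.9, 20.3 and 22.3 CPM, with the 4 libraries close together. In the Slc13a1 cluster it stood at 36.5 CPM in WT, 81.5 and 67.5 in PS19 and 32.6 in TG_PS19. The Opalin cluster gave 36.0, 62.2, 55.3 and 32.5 CPM, and the 9330111N05Rik cluster 35.6, 38.4, 37.3 and 26.2 CPM. The higher Olig2 of both PS19 libraries was thus widest in the Slc13a1 and Opalin clusters and not seen in the Anln cluster, a difference between clusters that was not tested.

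**Figure D5:**
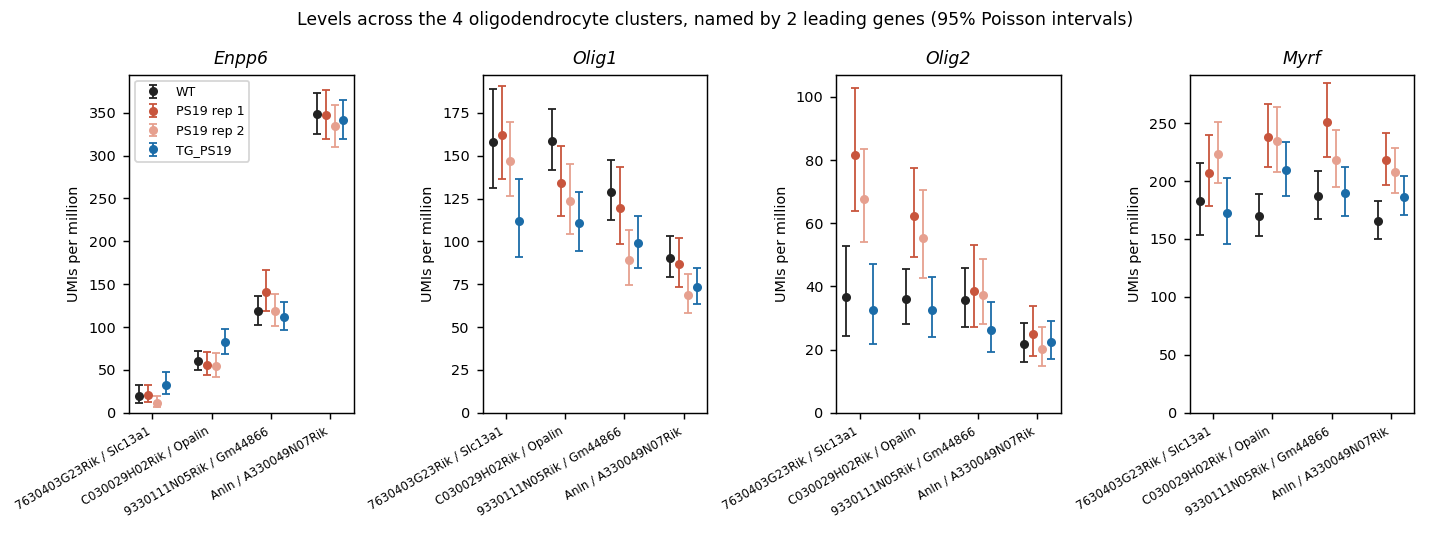
Levels of Enpp6, Olig1, Olig2 and Myrf in the 4 oligodendrocyte-like clusters of each library, in CPM, with exact 95% Poisson intervals. Enpp6 climbs from the Slc13a1 cluster to the Anln cluster in every library, and Olig2 is highest in PS19 in the Slc13a1 cluster.

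Among 11 cell classes with at least 50 nuclei in every library, 9 members were highest in a lineage class. The exception was Tcf7l2, and Sox6 was also abundant outside the lineage. Clusters that resembled precursors and oligodendrocytes had the highest Olig1, Olig2, Sox10, Nkx2-2 and Bcas1. Sox10 ran from 333 to 447 CPM in precursor-like and from 335 to 419 CPM in oligodendrocyte-like nuclei, which overlap, and the next class reached 25.5 CPM. Gpr17 ran from 100.1 to 146 CPM in precursor-like nuclei and to at most 8.41 CPM in any other class. Myrf ran from 174 to 228 CPM in oligodendrocyte-like nuclei and to at most 32.0 CPM in any other class.

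Sox6 was at 1630 to 1871 CPM in precursor-like nuclei, 852 to 960 CPM in astrocyte-like nuclei and 101 to 271 CPM in mural-like nuclei. Oligodendrocyte-like nuclei, at 5.31 to 10.3 CPM, were second to last among the classes, next to CA1 pyramidal neurons, with which they overlapped. Tcf7l2 was highest in astrocyte-like (376 to 433 CPM) and fibroblast-like nuclei (351 to 398 CPM), which overlap, and precursor-like nuclei were at 158 to 183 CPM. Its level in the committed-precursor-like cluster, given above, was higher than in any of these classes.

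Genes whose levels followed the members most closely over these 11 classes and 4 libraries are given by Pearson's r of log2(CPM + 1) over 44 points, which share libraries and depth. Sox10 and Bcas1 were nearest to Gjc3, a connexin gene (0.93 and 0.96). Olig1 and Olig2 were nearest to Matn4 (0.89 and 0.90), and Nkx2-2 to its opposite-strand transcript Nkx2-2os (0.92), whose reads it may share. Gpr17 was nearest to Neu4 (0.90), Myrf to Nkain1 (0.89), and Enpp6 to 4930420G21Rik (0.91). Sox6 was nearest to Gm45025 (0.94) and Tcf7l2 to Decr1 (0.95).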

How the data were processed

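RNA of single nuclei was counted in 4 libraries of pooled hippocampus. The deposited values are raw UMI counts per gene and nucleus that the authors made with Cell Ranger 7.1.0 on build GRCm38, per the submitters' processing notes; the annotation release and the counting of introns are not given in the sources used here. Positions are for GRCm38, and 1 of the 10 identifiers, that of Tcf7l2, differed in version.

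Nuclei were kept with at least 500 UMIs, 300 genes and at most 5% mitochondrial UMIs. Doublets were scored within a library by Scrublet's method, and the top scorers were removed, 0.8% of nuclei per 1000. Clusters came from 2000 variable genes without the members, 30 components, 15 neighbours and Leiden at resolution 1.0 (scanpy 1.11.5, leidenalg 0.10.2, Python 3.11.15), which gave 29. Names came from 18 marker lists with at least 3 raised markers, and each means that a cluster resembled the class. Ties were broken by markers among the leading 10 genes, a rule set after the clusters were seen, and 1 cluster led by Sfta3-ps and Hpse2 was left unnamed by judgement.

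UMIs were summed per library and stage, and fitted with edgeR 4.0.16 (R 4.3.3; filterByExpr, TMM, quasi-likelihood F-test, two-sided, Benjamini-Hochberg over all genes tested, threshold 0.05). Genotype fits held all 4 libraries, so that only the PS19 pair gave a residual degree of freedom (1), and WT and TG_PS19 were assumed to vary like PS19. The labels do not say that the PS19 libraries came from separate animals, so p-values measure only the spread between these libraries, which may be technical. Pdgfra, Vcan, Mog and Mag chose the stages and left the fits between stages, as did Gpr17 or Bcas1 in the fit split by it. The stage fit, the PS19 minus WT fits and both splits were run on simulated data, and the contrasts with TG_PS19 were not. The simulation used the same dispersion for all genes, and its outcome is not given here. Intervals and the limit of 3 counts cover counting error only. DESeq2 1.42.0 and other gates, filters and scalings were alternatives. Besides the members, the text names up to 4 genes of each list with the widest differences past the threshold, the 10 widest in the Gpr17 and Bcas1 splits, and the nearest gene by correlation. The members and lists were chosen with earlier results of these data known. A result for 1 gene of the lists is not reported here.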

Additional observations from a re-analysis of the deposited data

Results flagged for a closer look

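Differences between genotypes that were not the same in precursors and mature oligodendrocytes, by the interaction of stage and group in edgeR, were seen for 3 members. In PS19 minus WT the interaction, coded as mature minus precursor, was -3.21 for Enpp6 (SE 0.39, adjusted p = 0.0308), 1.63 for Sox6 (SE 0.21, adjusted p = 0.0350) and -0.71 for Bcas1 (SE 0.097, adjusted p = 0.0409). In TG_PS19 minus PS19 it was -2.27 for Sox6 (SE 0.22, adjusted p = 0.0429). The adjusted p over other settings ran from 2.096e-09 to 0.9843 for Enpp6, from 1.337e-15 to 0.9214 and from 4.676e-27 to 1 for Sox6, and from 2.358e-08 to 0.5276 for Bcas1. Committed-precursor-like nuclei numbered 25 on the precursor side, 39 on the mature side and 1 on neither, and 2 of these 65 were from WT.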

How the results depend on the processing

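The stage difference held best, with 7 to 9 of 10 members called over 18 alternatives and 7 to 8 with a library left out. Sox6, Gpr17, Olig1, Olig2 and Tcf7l2 stayed lower and Myrf and Enpp6 higher in mature oligodendrocytes under all of them, and past the threshold. Sox10 turned to 0.50 with the gate over all kept nuclei, 0.10 with doublets kept, 0.0018 after thinning, 0.096 with every gene of at least 1 UMI, 0.028 without PS19 replicate 1 and 0.060 without PS19 replicate 2, within a range of -0.10 to 0.060 when a library was left out. Nkx2-2 turned to 0.0012 with the gate over all kept nuclei. The cause was not tested for any value in this part.

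Calls of members by genotype hung on the settings. In precursors PS19 minus WT gave 2 with a gate of at least 2 UMIs, relative log expression scaling, library totals, no low-count filter or a robust prior, and 0 with cluster classes, doublets kept, thinning, the committed-precursor-like cluster left out, DESeq2 or adjusted residual degrees of freedom. TG_PS19 minus PS19 gave 3 with library totals and 1 with the gate of at least 2 UMIs, the gate over all nuclei, doublets kept, relative log expression, no filter or a robust prior. In mature oligodendrocytes PS19 minus WT gave 4 with the gate over all nuclei, doublets kept or library totals, 3 with no filter or a robust prior, 2 with cluster classes, the cluster left out or relative log expression, and 1 after thinning, with Y-linked TG_PS19 nuclei alone or with DESeq2. TG_PS19 minus PS19 gave 3 with cluster classes or the cluster left out, 2 with doublets kept, relative log expression, library totals, no filter or a robust prior, and 1 with the gate over all nuclei, Y-linked nuclei or DESeq2. TG_PS19 minus WT gave 2 with doublets kept or library totals and 1 with no filter. The interaction for PS19 minus WT gave 0 with at least 2 UMIs or adjusted residual degrees of freedom, and 1 after thinning or without the cluster. For TG_PS19 minus PS19 it gave 0 with at least 2 UMIs, the gate over all nuclei, Y-linked nuclei or adjusted residual degrees of freedom, 2 with relative log expression, library totals or a robust prior, and 3 with no filter. The share of all genes called moved with the settings too, so these counts of members are not results about the members. In mature oligodendrocytes it rose from 0.867% to 6.32% for PS19 minus WT when the cluster was left out. For TG_PS19 minus PS19 it rose from 0.646% to 8.35%. Genes called ran from 4 to 65 and from 5 to 674 in precursors for PS19 minus WT and TG_PS19 minus PS19, and from 38 to 1737 and from 5 to 1763 in mature oligodendrocytes. TG_PS19 minus WT ran from 1 to 246 and from 3 to 694. The interactions ran from 1 to 373 and from 0 to 193, the stage difference from 5145 to 10820, the Gpr17 split from 2 to 112 and the Bcas1 split from 1 to 93.

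Sox6 in mature oligodendrocytes turned, for PS19 minus WT, to -0.90 with cluster classes, -0.68 with the gate over all nuclei, -0.31 after thinning and -0.29 without the cluster, and for TG_PS19 minus PS19 to 0.58 with cluster classes and 0.33 with the gate over all nuclei. Its interaction turned to -0.91, -0.79, -0.30 and -0.32 under the same 4 settings, and for TG_PS19 minus PS19 to 0.38 and 0.0044. The interaction of Enpp6 turned to 0.71 without the cluster, and that of Gpr17 for TG_PS19 minus PS19 to -0.24 with Y-linked nuclei alone. Enpp6 in precursors turned to 0.19 with doublets kept, and Tcf7l2 in mature oligodendrocytes to -0.055 with library totals and -0.00053 with no filter, for TG_PS19 minus PS19.

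The Gpr17 split called 4 members over all nuclei of the precursor clusters, 2 with doublets kept, at least 2 UMIs against 0 or no filter, 0 without the cluster, with DESeq2 or with a robust prior, and 1 to 2 with a library left out. The Bcas1 split called 3 over the precursor clusters or with no filter, 2 with doublets kept, 1 with at least 2 UMIs and 0 to 1 with a library left out. Only the PS19 libraries carry replicate numbers, so these pair no samples across genotypes. The stage comparison and both splits were paired within each library by the library block, and with no such block (no replicate block) the Gpr17 split called 0 members. Shares of nuclei with Gpr17 or Bcas1 fell, with at least 2 UMIs, to 39.3%, 45.1%, 51.9% and 36.9% in WT, PS19 replicates 1 and 2 and TG_PS19, and by thinning to 47.95%, 43.8%, 44.6% and 42.7%. In Y-linked TG_PS19 nuclei the share was 72.5%. The committed-precursor-like share of WT became 0.227% with doublets kept, 0.0862% by 7 genes and 0.113% by 7 genes after thinning. That of PS19 replicate 2 became 0.347% by 5 genes after thinning. That of TG_PS19 became 0.504% with doublets kept, 0.252% by 5 genes after thinning, 0.278% by 7 genes and 0.405% by 7 genes after thinning.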
